A study of Mus musculus with 6 samples.

Results

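The 8 mature miRNAs described here are produced from 5 hairpins that lie antisense to the imprinted gene Rtl1 on mouse chromosome 12. They are mmu-miR-127-3p, mmu-miR-127-5p, mmu-miR-136-5p, mmu-miR-136-3p, mmu-miR-431-5p, mmu-miR-433-3p, mmu-miR-434-3p and mmu-miR-434-5p (written without the mouse prefix mmu- from here on), taken by name from a table of 1034 distinct mature miRNAs. A hairpin can give a miRNA from each side of its stem, called the 5p and the 3p arm. Both arms were listed for 3 hairpins and 1 arm for the other 2. Small RNA was sequenced from nephron progenitors, the embryonic kidney cells that form nephrons, of CD1 mice. No transgene, treatment or mutation was named. One group was collected in midgestation, at the embryonic stage E14.5, and the other on the day of birth (P0, postnatal day 0), with 3 samples in each. Each sample pooled the kidneys of a single litter, and progenitors were captured on magnetic beads with an antibody against the surface integrin Itga8. The miRNA table holds no protein-coding gene, so it gives no check of Itga8 or another progenitor marker.

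Rtl1 is a gene derived from a retrotransposon and is expressed from the paternal chromosome. The maternal chromosome is transcribed in the opposite direction, within a long imprinted region that also gives rise to the noncoding RNAs Meg3, Rian and Mirg. Because the Rtl1-antisense miRNAs are cut from the strand opposite to the Rtl1 coding sequence, they match the Rtl1 messenger RNA base for base and are known to guide its cleavage. Rtl1 is best known for its role in the fetal blood vessels of the placenta. Outside this locus miR-127-3p has been reported to repress Bcl6, a transcriptional repressor, and miR-431-5p to repress Pax7 in muscle stem cells.

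The sequences are shown because they define both the targets of these miRNAs and their relation to Rtl1. The 8 mature sequences were found in RefSeq (build GRCm38.p6) at the positions given in the table. Each is written 5′ to 3′ with its seed, bases 2 to 8, in capitals.
miR-431-5p: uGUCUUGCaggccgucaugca
miR-433-3p: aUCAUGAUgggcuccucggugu
miR-127-5p: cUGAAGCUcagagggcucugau
miR-127-3p: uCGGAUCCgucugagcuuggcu
miR-434-5p: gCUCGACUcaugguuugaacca
miR-434-3p: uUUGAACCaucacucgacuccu
miR-136-5p: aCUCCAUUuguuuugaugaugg
miR-136-3p: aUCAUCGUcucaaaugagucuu
The 8 miRNAs carry 8 different seeds, and 0 of these seeds was found in a mature miRNA of another name in the RefSeq table. The arms therefore do not form a seed family. The longest run that any pair of members shares is 9 bases, UUUGAACCA, which lies at the 3′ end of miR-434-5p and at the 5′ end of miR-434-3p.

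All 8 mature sequences lie on the plus strand inside the coding part of Rtl1, which GENCODE release M21 (GRCm38, the same assembly as mm10) places on the minus strand at chr12:109590172-109595403. The reverse complement of each member occurred exactly once in the Rtl1 transcript. Counted from the first base of the 5232-base coding sequence, the sites start with miR-136-3p at bases 17 to 38 and miR-136-5p at 52 to 73. Those of miR-434-3p and miR-434-5p lie at bases 818 to 839 and 855 to 876. The miR-127-3p site is at bases 2495 to 2516 and the miR-127-5p site at 2529 to 2550. The sites of miR-433-3p, at bases 3602 to 3623, and miR-431-5p, at 4925 to 4945, are the closest to the end of the coding sequence.

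**Figure D1:**
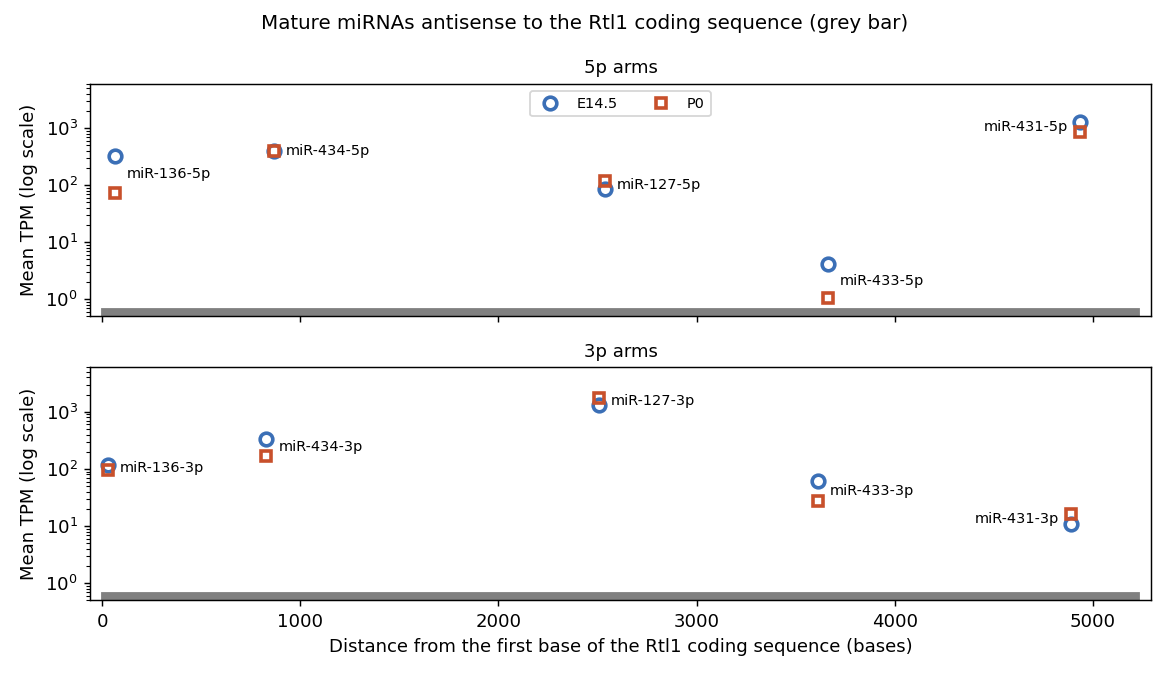
Mean level of 3 libraries in TPM, on a log axis, of each 5p arm (upper panel) and 3p arm (lower panel) against the distance of its site from the first base of the Rtl1 coding sequence, for E14.5 (circles) and P0 (squares). The grey bar is the coding sequence, 5232 bases long. The highest means are those of miR-127-3p, near the middle, and miR-431-5p, near the end.

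The members were of middling to moderately high abundance among nephron progenitor miRNAs. Values of single libraries are given in the order of replicates 1, 2 and 3. Levels are in TPM, here reads divided by a length step and scaled to 1000000 per library. The step is the annotated end minus start, 1 base less than the length of the miRNA. By mean TPM over all 6 libraries, miR-127-3p was 64th and miR-431-5p 78th of the 1034 miRNAs. The other members ran from rank 124 (miR-434-5p) to rank 293 (miR-433-3p), and all 8 passed the filter of a mean of at least 1 TPM. Read numbers behind single values ranged from 151, for miR-127-5p in E14.5 replicate 1, to 57962, for miR-127-3p in P0 replicate 1. The recovered reads of whole libraries ranged from 2649506 to 34934526 over all rows of the table, with the 2 smallest libraries both from E14.5.

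Scaling and 1 library bear on every comparison of the stages. In TPM the median log2 change of the 670 miRNAs tested was −1.20 (P0 over E14.5). Median-of-ratios scaling divides each library by its typical ratio to the mean library, and brought that median to −0.17. Changes of the members are therefore given on both scales and set against these medians. P0 replicate 1 stood apart from the other P0 libraries, scoring 1.14 on the first principal component of all tested miRNAs, against 33.2 and 33.5 for P0 replicates 2 and 3 and −26.2 to −16.2 for E14.5. In libraries made from bulk cells, fewer cells of a type and less RNA per cell cannot be told apart.

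The summed level of the 8 members was close at the 2 stages in TPM. It was 3003, 4381 and 4305 TPM at E14.5 against 3083, 3764 and 3698 TPM at P0. The means were 3896 ± 774 TPM for E14.5 against 3515 ± 376 for P0 (SD, n = 3), and the stages overlapped. After median-of-ratios scaling the same sums were 2493 ± 498 for E14.5 against 5722 ± 1935 for P0 (SD, n = 3), with 3516 in P0 replicate 1 and 7129 and 6522 in P0 replicates 2 and 3, all above the E14.5 maximum of 2982. No test was made of these sums.

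The make-up of that pool also varied between libraries. Of the summed TPM, miR-127-3p held 28.7%, 41.3% and 29.4% at E14.5 against 54.1%, 45.6% and 51.8% at P0. It was thus a larger part of the pool in each P0 library than in any E14.5 library, with means of 33.1% ± 7.11 and 50.5% ± 4.35 (SD, n = 3). miR-431-5p held 32.3% ± 0.934 at E14.5 (SD, n = 3), and 10.7%, 31.9% and 28.7% in P0 replicates 1, 2 and 3. miR-136-5p held 9.40%, 3.81% and 11.9% at E14.5 against 3.38%, 2.06% and 1.09% at P0. For miR-434-3p the share was 8.74% ± 0.839 for E14.5 against 4.97% ± 2.31 for P0 (SD, n = 3). miR-431-5p was the highest member in E14.5 replicates 1 and 3, and miR-127-3p in E14.5 replicate 2 and all 3 P0 libraries. Their E14.5 levels did not differ beyond their spread. At the other end of the order, miR-433-3p was the lowest member in the 3 P0 libraries and E14.5 replicate 2, and miR-127-5p in E14.5 replicates 1 and 3.

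miR-127-3p, the most abundant member, had 862, 1811 and 1264 TPM at E14.5 against 1667, 1718 and 1915 TPM at P0. The stages overlapped through E14.5 replicate 2, and the P0 libraries were the more uniform. Its log2 fold change was 0.49 in TPM (SE 0.49, adjusted p = 0.419 by limma), which lay 1.69 above the median of all miRNAs. After median-of-ratios scaling the values were 570.4, 1232 and 737 at E14.5 and 1901, 3254 and 3377 at P0, with no overlap. There the log2 fold change was 1.78 (SE 0.46, adjusted p = 0.0401 by limma), or 1.95 above the median, and without P0 replicate 1 it was 2.04 (limma adjusted p = 0.0018).

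miR-127-5p, the minor arm of the same hairpin, followed it at a much lower level. It had 57.2, 118 and 80.3 TPM at E14.5 against 111, 118 and 126 TPM at P0. As with the major arm, E14.5 replicate 2 reached the P0 range and the other E14.5 libraries did not. The log2 fold change was 0.53 in TPM (SE 0.55, adjusted p = 0.436 by limma) and 1.80 after median-of-ratios scaling (SE 0.50, adjusted p = 0.0461 by limma), which lay 1.73 and 1.98 above the medians. Without P0 replicate 1 the scaled change was 2.07 (limma adjusted p = 0.0032). On the scaled values both arms of miR-127 lost the call when any library other than P0 replicate 1 was left out, with changes of 1.53 to 2.08 for miR-127-3p and 1.57 to 2.11 for miR-127-5p. They were not called by limma-voom either (1.64 and 1.65, adjusted p = 0.0737 and 0.0825) or with GC correction (1.21 and 1.39, limma adjusted p = 0.0666 and 0.0552). Their direction was positive under all 24 alternatives.

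miR-434-5p was the steadiest member in TPM. It had 402, 394 and 415 TPM at E14.5 against 457, 379.8 and 361 TPM at P0, so the stages overlapped. The log2 fold change was −0.02 in TPM (SE 0.49, adjusted p = 0.974 by limma), with a 95% interval from −1.09 to 1.04. Relative to the median of all miRNAs it was 1.17 higher. After median-of-ratios scaling all P0 values (521, 719 and 636) were above the E14.5 values (266, 268 and 242). The scaled log2 fold change of 1.26 (SE 0.40) had a limma adjusted p of 0.0684, and of 0.0036 without P0 replicate 1, where it was 1.38.

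miR-434-3p, its partner arm, was lower in all P0 libraries in TPM. It had 288, 347 and 375 TPM at E14.5 against 229, 173 and 106 TPM at P0. The stages did not overlap, and the log2 fold change was −1.04 (SE 0.54, adjusted p = 0.136 by limma), close to the median of all miRNAs. Without P0 replicate 1 it was −1.30 and passed the threshold (limma adjusted p = 0.0072). It then lay 0.12 above the median of that comparison (−1.42), where 53.4% of all miRNAs were called lower. The direction turned after median-of-ratios scaling, to 0.24 (SE 0.43, adjusted p = 0.726 by limma), with overlapping stages.

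miR-136-5p was the 1 member that passed the threshold in TPM. It had 282, 167 and 512 TPM at E14.5 against 104, 77.6 and 40.2 TPM at P0, with no overlap. It fell by 2.05 on the log2 scale (SE 0.62, adjusted p = 0.0237 by limma), which was 0.86 beyond the median fall. The call was lost when E14.5 replicate 1 or 3 or P0 replicate 2 or 3 was left out (limma adjusted p from 0.0657 to 0.134), and was kept without E14.5 replicate 2 or P0 replicate 1. After median-of-ratios scaling the change was −0.78 (SE 0.52, adjusted p = 0.312 by limma), and the stages overlapped.

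miR-136-3p varied among the P0 libraries. It had 108, 108 and 134 TPM at E14.5 against 181, 54.9 and 51.3 TPM at P0. P0 replicate 1 was the highest of the 6 libraries and the other P0 libraries were the lowest. Its log2 fold change was −0.53 in TPM (SE 0.62, adjusted p = 0.489 by limma), −1.11 without P0 replicate 1 (limma adjusted p = 0.0185) and 0.74 after median-of-ratios scaling (SE 0.48, adjusted p = 0.301 by limma). Relative to the medians it was 0.66 higher in TPM and 0.91 higher on the scaled values. In TPM without P0 replicate 1 it lay 0.31 above the median of that comparison (−1.42). Without P0 replicate 1 the scaled log2 fold change was 0.38 (limma adjusted p = 0.342), which was 0.67 above the median of that comparison. The hairpin Mir3071 is annotated on the opposite strand at the same place, and use of strand in the counting was not given in the sources used here, so reads of Mir3071 and of the miR-136 arms cannot be told apart.

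miR-431-5p and miR-433-3p come from the hairpins nearest the end of the Rtl1 coding sequence, and both were lowest in P0 replicate 1. miR-431-5p had 946, 1404 and 1434 TPM at E14.5 against 329.6, 1201 and 1063 TPM at P0. P0 replicates 2 and 3 lay inside the E14.5 range, and the log2 fold change in TPM was −0.72 (SE 0.58, adjusted p = 0.325 by limma), and −0.13 without P0 replicate 1 (limma adjusted p = 0.707). On the scaled values it was 0.56 (SE 0.65, adjusted p = 0.568 by limma), and 1.38 without P0 replicate 1 (limma adjusted p = 0.0051). It lay 0.47 above the median of all miRNAs in TPM and 0.73 above it on the scaled values, and 1.29 and 1.66 above without P0 replicate 1. miR-433-3p had 57.5, 31.4 and 92.0 TPM at E14.5 against 4.52, 40.5 and 36.0 TPM at P0. The 4.52 TPM rest on 157 reads in the deepest library. Its log2 fold change was −1.46 in TPM (SE 0.80, adjusted p = 0.155 by limma) and −0.21 after median-of-ratios scaling (SE 0.90, adjusted p = 0.891 by limma), and with P0 replicate 1 left out the 2 values were −0.52 and 0.96. With all libraries it differed from the medians by −0.26 and −0.04, and without P0 replicate 1 it lay 0.90 and 1.25 above them (medians of all miRNAs −1.42 in TPM and −0.29 scaled).

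**Figure D2:**
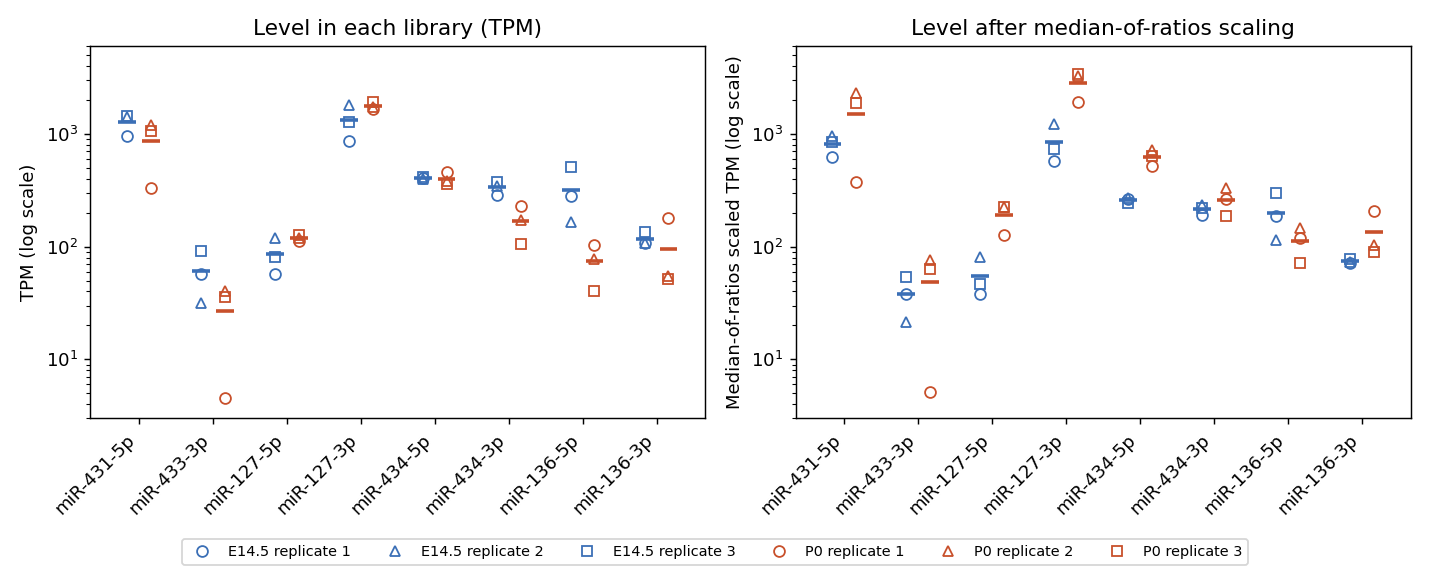
Level of each member in each library, in TPM (left) and after median-of-ratios scaling of the TPM values (right), both on log axes. Blue symbols are E14.5 and orange symbols P0, the symbol shape gives the replicate and the short line is the mean of 3 libraries. In TPM the stages separate for miR-136-5p and miR-434-3p, and after scaling for both miR-127 arms, miR-434-5p and miR-136-3p.

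Counted over the 8 members, 1 was called lower and 0 higher in TPM by limma with Benjamini-Hochberg adjustment, against 34.2% of the 670 miRNAs called (32.8% lower and 1.34% higher). At an unadjusted p under 0.05 the TPM count of members was also 1, against 49.0% of all tested. After median-of-ratios scaling 2 were called higher and 0 lower, against 10.9% of all tested (5.67% higher and 5.22% lower). At an unadjusted p under 0.05 the scaled count was 3 of the 8, near the 34.0% of all tested. The stages did not overlap for 2 of the 8 in TPM, both lower at P0, against 49.6% of all tested (46.4% lower and 3.13% higher). After scaling they did not overlap for 4 of the 8, all higher at P0, against 35.4% (15.8% higher and 19.6% lower). By direction alone, 2 of the 8 were higher at P0 in TPM and 6 of the 8 after scaling, beside 19.1% and 45.1% of all tested. The median log2 change of the members was −0.63 in TPM and 0.65 after scaling, beside −1.20 and −0.17 over all miRNAs tested, and 6 of the 8 lay above those medians on each scale. Without P0 replicate 1, 3 members were called lower in TPM (miR-136-5p, miR-136-3p and miR-434-3p), against 61.2% of all miRNAs called (53.4% lower and 7.76% higher). On the scaled values, again without that library, 4 were called higher (both miR-127 arms, miR-431-5p and miR-434-5p), against 48.7% called (22.2% higher and 26.4% lower).

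**Figure D3:**
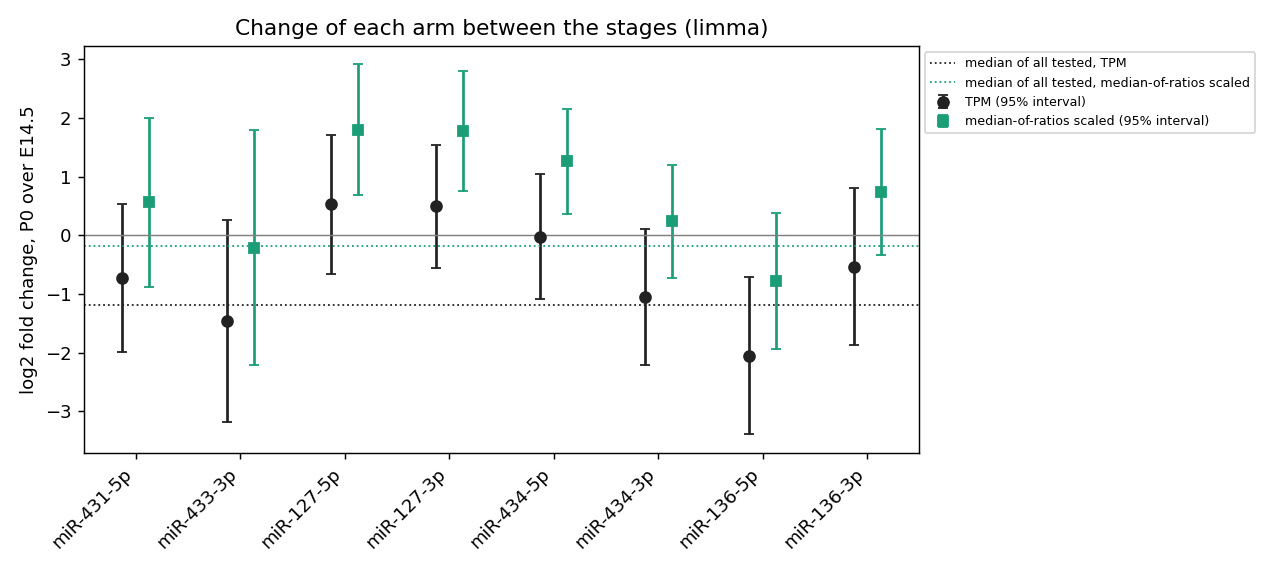
Log2 fold change, P0 over E14.5, of each member with its 95% interval from limma, in TPM (black circles) and after median-of-ratios scaling (green squares), with dotted lines at the medians of all 670 miRNAs tested (−1.20 and −0.17). Each arm sits higher on the scaled values, and miR-136-5p is the member farthest below the dotted line on both scales.

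A ratio of 2 arms within a library does not depend on how libraries are scaled, so the arms were compared in this way. The hairpins of the 3 loci with both arms are shown for this comparison, from RefSeq (build GRCm38.p6), with the 5p arm first and the 3p arm second in capitals. They lie on the plus strand at chr12:109592846-109592915, chr12:109594506-109594599 and chr12:109595327-109595388.
Mir127: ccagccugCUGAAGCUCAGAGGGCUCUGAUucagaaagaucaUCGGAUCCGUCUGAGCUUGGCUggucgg
Mir434: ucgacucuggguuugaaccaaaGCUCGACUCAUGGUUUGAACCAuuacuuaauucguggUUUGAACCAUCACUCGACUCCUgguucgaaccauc
Mir136: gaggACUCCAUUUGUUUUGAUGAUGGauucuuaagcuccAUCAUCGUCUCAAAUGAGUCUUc
Both arms of each hairpin have 22 bases in the annotation, so their ratio is the same in TPM and in reads.

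The 2 arms of miR-127 kept an almost fixed proportion. The 3p arm took 93.8%, 93.9% and 94.0% of the reads of the hairpin at E14.5 against 93.8%, 93.6% and 93.8% at P0. The 95% Wilson intervals, which cover counting error only, were at widest 92.8% to 94.7% in E14.5 replicate 1. The log2 ratio of 3p to 5p was 3.94 ± 0.03 for E14.5 against 3.90 ± 0.03 for P0 (SD, n = 3), a difference of −0.05 with overlapping stages (exact two-sided permutation p = 0.2). Over the 114 hairpins with both arms at a mean of at least 10 TPM, the ratio of miR-127 had the second lowest SD across the 6 libraries, 0.04 against a median of 0.95.

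The arm shares of miR-434 and miR-136 were apart at the 2 stages. For miR-434 the 3p arm took 41.8%, 46.8% and 47.5% of the reads at E14.5 against 33.4%, 31.3% and 22.8% at P0. Its share was lower in each P0 library than in any E14.5 library. The log2 ratio of 3p to 5p was −0.27 ± 0.18 for E14.5 against −1.30 ± 0.41 for P0 (SD, n = 3), a difference of −1.03 (exact two-sided permutation p = 0.1, adjusted over the 3 loci 0.15).

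For miR-136 the proportion differed in the other direction. The 3p arm took 27.7%, 39.4% and 20.7% of the reads at E14.5 against 63.4%, 41.5% and 56.1% at P0. The 5p arm was thus the major arm in the 3 E14.5 libraries and P0 replicate 2, and the 3p arm in P0 replicates 1 and 3. The stages did not overlap, but E14.5 replicate 2 (Wilson interval 38.2% to 40.6%) and P0 replicate 2 (39.7% to 43.2%) had intervals that did. The log2 ratio was −1.31 ± 0.66 for E14.5 against 0.22 ± 0.66 for P0 (SD, n = 3), a difference of 1.53 (exact two-sided permutation p = 0.1, adjusted over the 3 loci 0.15). With 3 libraries against 3, 0.1 is the smallest p this test can give, so none of these ratios could reach 0.05. Among the 114 hairpins the stages did not overlap for 38.6%, and the size of the difference ranked 38th for miR-136, 64th for miR-434 and 109th for miR-127.

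**Figure D4:**
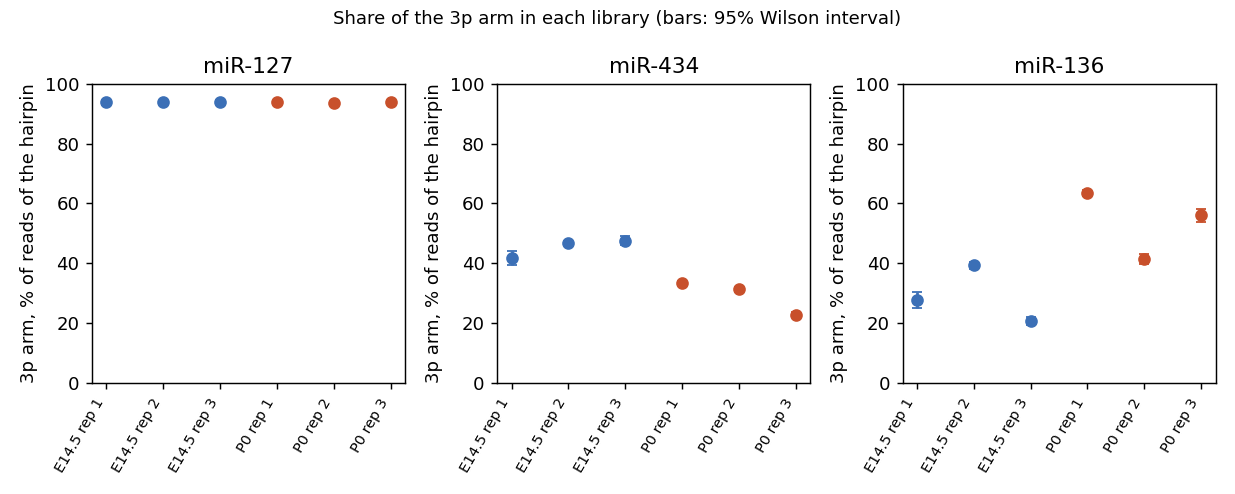
Share of the reads of each hairpin that belongs to its 3p arm, in percent, in each library (blue E14.5, orange P0), with 95% Wilson intervals that are mostly smaller than the symbols. The miR-127 share stays between 93.6% and 94.0%, the miR-434 share is lower in all P0 libraries and the miR-136 share higher.

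Ratios to miR-127-3p in the same library describe the members without any scaling. Since miR-127-3p had a higher fold change than each member of the other hairpins, the direction of these differences is set by the choice of reference, and they are given with no test. The log2 ratio to miR-127-3p was −1.61, −3.44 and −1.30 for miR-136-5p at E14.5 against −4.00, −4.47 and −5.57 at P0. For miR-431-5p it was 0.13, −0.37 and 0.18 at E14.5 and −2.34, −0.52 and −0.85 at P0, and for miR-434-3p −1.58, −2.38 and −1.75 at E14.5 and −2.86, −3.31 and −4.17 at P0. In these ratios every P0 library lay below every E14.5 library, with mean differences of −2.56, −1.22 and −1.54. The matching share of all miRNAs was not computed for this reference. In TPM itself 46.4% of all tested were lower at P0 without overlap. The ratios of miR-433-3p, miR-434-5p and miR-136-3p overlapped between the stages, with differences of −2.04, −0.52 and −1.03. Without P0 replicate 1 the differences of miR-431-5p and miR-433-3p were smaller, at −0.67 and −1.06. Those of miR-136-3p, miR-136-5p, miR-434-3p and miR-434-5p were larger, at −1.66, −2.90, −1.83 and −0.66.

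Other arms of the locus were scarce. miR-431-3p had 5.30, 13.7 and 13.5 TPM at E14.5 against 7.59, 13.9 and 26.3 TPM at P0. The stages overlapped, and the TPM log2 fold change was 0.46 (SE 0.65, adjusted p = 0.574 by limma), and 0.87 without P0 replicate 1 (limma adjusted p = 0.197). On the scaled values it was 1.64 (limma adjusted p = 0.129), and 2.27 without P0 replicate 1, where it was called higher (limma adjusted p = 0.0092). miR-433-5p had 3.79, 4.75 and 3.92 TPM at E14.5 and 1.58, 0 and 1.58 TPM at P0, the last values on 55, 0 and 34 reads (log2 fold change −1.45, SE 0.57, limma adjusted p = 0.0626, and 0.0274 without P0 replicate 1). Its scaled change was −0.73 (limma adjusted p = 0.406). miR-431-3p and miR-433-5p lie inside the Rtl1 coding sequence. miR-3070-3p and miR-3070-5p come from hairpins of the same strand beyond the end of the Rtl1 gene. miR-3070-3p had 1.89, 2.42 and 6.46 TPM at E14.5 and 0.345, 0.675 and 0 TPM at P0, and miR-3070-5p 1.08, 1.86 and 3.55 TPM at E14.5 and 0.247, 0 and 0 TPM at P0, on at most 57 reads in a library. Their mean reached the filter of 1 TPM only through the E14.5 libraries, so a lower value at P0 was built into their selection and no test is given. miR-3070-5p is encoded by both Mir3070a and Mir3070b, so its reads cannot be assigned to either. miR-3070-2-3p had 0 to 13 reads in a library and was not tested.

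The rest of the imprinted region was counted from lists of its miRNAs. Of the miRNAs of Meg3 and Rian, 16 were tested, with 0 called higher and 5 lower in TPM and a median log2 change of −1.10, where 32.8% of all miRNAs were called lower. Of those of Mirg, the noncoding RNA farther along the same strand, 62 were tested, with 1 called higher and 26 lower and a median of −1.42. After median-of-ratios scaling 2 of the 16 and 5 of the 62 were called lower and 0 and 1 higher, with medians of 0.04 and −0.45, where 5.22% of all miRNAs were called lower and 5.67% higher. The 8 members had medians of −0.63 in TPM and 0.65 scaled. These medians describe the 8 abundant arms and not the whole locus. The 4 scarce other arms tested had medians of −1.46 and −0.89, which rest in part on the miR-3070 arms that passed the filter through E14.5. The differences between the lists were not tested.

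The miRNAs most like the average member profile, by Pearson r of log2(TPM + 1) over the 6 libraries, were miR-666-3p (r = 0.99), miR-135a-1-3p (0.97), miR-329-3p (0.95), miR-3098-5p (0.94) and miR-3060-3p (0.94). This average gives each member equal weight, and these values describe shared libraries of unequal depth. The members had no single common profile. Between pairs of them r ran from −0.75 (miR-127-5p and miR-136-5p) to 0.997 (the 2 arms of miR-127). miR-666-3p and miR-329-3p belong to the Mirg miRNAs of the same region, and the other 3 lie on other chromosomes. miR-666-3p had 6.06, 15.8 and 27.6 TPM at E14.5 and 7.56, 6.39 and 2.65 TPM at P0, well below the levels of most members. In E14.5 replicate 1, where 3 reads correspond to 1.14 TPM, miR-135a-1-3p had 1.14, miR-3098-5p 0.757 and miR-3060-3p 0.379 TPM, and the last 2 were at 0 in P0 replicates 2 and 3. The likeness of these 3 therefore rests on very few reads in several libraries. They also reached the filter of a mean of 1 TPM only through the E14.5 libraries, which built in a lower value at P0.

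Marker miRNAs of other cell types were taken from 6 lists, and 0 markers were called higher in TPM. Markers called lower are counted within each list, where 32.8% of all single miRNAs tested were called lower. The 2 endothelial markers (arms of miR-126a) summed to 26608 to 44921 TPM at E14.5 and 5634 to 8158 at P0, and both were called lower. The 9 stromal markers summed to 85580 to 102772 TPM at E14.5 and 33691 to 46708 at P0, with 6 called lower. The 4 neural markers summed to 1048 to 2217 TPM at E14.5 and 162 to 735 at P0, with 2 called lower and 1 marker, the neuron-enriched miR-124-3p, at 0 in at least 1 library. The 5 erythroid markers summed to 242 to 417 TPM at E14.5 and 128 to 194 at P0, with 1 called lower and 1, miR-486a-3p, at 0 in at least 1 library. The 4 leukocyte markers summed to 632 to 1202 TPM at E14.5 and 454 to 629 at P0, and the 3 muscle markers to 28.0 to 69.1 and 15.4 to 133 TPM, with 0 called in either list. All were measured on the TPM scale with its general fall, and their part in the changes of the members was not tested.

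The GC content of the mature sequence also differed among the members, from 36.4% in both miR-136 arms to 59.1% in miR-127-3p. The arms of miR-136 are equal in this respect. Removing the trend of each library on GC content also removes the general fall in TPM, so its values compare with the scaled ones. The log2 fold change of miR-136-5p was then −0.17 (limma adjusted p = 0.843), beside −0.78 on the scaled values, and that of miR-127-3p was 1.21 (limma adjusted p = 0.0666), beside 1.78. Those of miR-127-5p, miR-431-5p and miR-434-5p were also smaller, at 1.39, 0.071 and 1.02, beside 1.80, 0.56 and 1.26. Those of miR-136-3p, miR-433-3p and miR-434-3p were larger in size, at 1.35, −0.60 and 0.29, beside 0.74, −0.21 and 0.24. No member was called. Of the 582 miRNAs tested there, 34 were called higher and 32 lower.

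None of the 8 members (0) in the authors' deposited table had an adjusted p under 0.05, against 10.4% of miRNAs, and 3 had an unadjusted p under 0.05, against 21.4%. Its log2 fold changes were positive for 7 of the 8, against 43.1% of miRNAs, and 7 of the 8 had the sign found here after median-of-ratios scaling. The authors' deposited table gave 1.56 (SE 0.63, adjusted p 0.0691) for miR-127-3p, 1.59 (SE 0.64, adjusted p 0.0737) for miR-127-5p and 1.23 (SE 0.57, adjusted p 0.121) for miR-434-5p. For miR-136-5p the authors' deposited table gave −0.40 (SE 0.67, adjusted p 0.715).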

How the data were processed

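Small RNA of 6 litter pools, 3 per stage, was sequenced from one end, after preparation with a QIAseq kit per the protocols in the labels. The submitters' processing notes name featureCounts, DESeq2 (1.26.0) and mm10, with no role or order. Trimming, aligner and the treatment of molecular tags are not given in the sources used here. The authors deposited TPM values for 1104 rows, and a script found each value times its length step to be a whole multiple of a library step (100% within 0.01), which gave the recovered reads. The sign of the authors' fold change was read as P0 over E14.5 from the values of the libraries. The authors' deposited table also holds a mean normalised signal, a log2 fold change with standard error, a test score, and a p-value with its adjusted p-value.

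Where a miRNA had several rows (52 miRNAs), only its most abundant row entered. limma 3.58.1 (R 4.3.3), with trended and moderated variances and stage as the only term, was fitted to log2(TPM + 1) of the 670 miRNAs whose mean reached 1 TPM. This scale understates the change of scarce miRNAs. Benjamini-Hochberg adjustment ran over all miRNAs tested, with calls below 0.05. Arm ratios had exact permutation tests. The fit was tested on simulated data. Alternatives were other scalings, limma-voom on recovered reads, filters, pseudocount 0.1, summed rows, thinned reads, GC correction, which also centres each library (sequences for 86.9% of tested miRNAs), a replicate block and leaving out each library. Named were all members, the other arms of the locus and the 5 miRNAs most like their mean profile. Members and lists were chosen with earlier results of these data known. Samples are separate litters, so p-values measure the spread between litter pools. The labels give no sequencing batch. A floor of 3 reads at a length step of 21 bases corresponded to 0.0863 to 1.14 TPM.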

Additional observations from a re-analysis of the deposited data

How the results depend on the processing

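In TPM, the count of called members (1) was the same with no filter, a filter at 10 TPM, pseudocount 0.1, summed rows, thinned reads and the replicate block, and each time it was miR-136-5p. Among the 670 miRNAs tested, the 8 members and 82 others of the region, limma called 229 (34.2%), 1 and 34 in TPM. The 34 include miR-3070-3p and miR-3070-5p, whose lower value at P0 was built into their selection. The counts were 73, 2 and 8 with median-of-ratios scaling, 63, 2 and 8 with upper-quartile scaling, and 16, 0 and 3 with limma-voom (3 members at an unadjusted p under 0.05, against 27.3% of all tested). With GC correction they were 66, 0 and 7, and with GC correction and the replicate block 79, 0 and 9 (4 members at an unadjusted p under 0.05 in both, against 30.6% and 32.8% of all tested). Both GC settings tested 582 miRNAs, with 79 others of the region. Deviations of same-numbered samples correlated at 0.19, 0.18 and 0.04, and those of differently numbered samples at −0.18 to 0.08. These values do not settle whether the replicate numbers pair the samples. Stage was the only term of the main fit, and the replicate block was run as an alternative. The replicate block gave 247, 1 and 35 in TPM, and 67, 2 and 8 with median-of-ratios scaling, a setting chosen after seeing the data. In the block the 3 arm ratios kept their values, with sign-flip exact p = 0.25, the smallest it allows. Leaving out each library gave 66 to 410, 0 to 3 and 12 to 49 calls in TPM, and 0 to 326, 0 to 4 and 0 to 39 with median-of-ratios scaling (added after seeing the data), the highest each time without P0 replicate 1. The difference in arm ratio then ran from −0.06 to −0.03 for miR-127, 1.22 to 1.89 for miR-136 and −1.18 to −0.79 for miR-434. The log2 ratio of summed levels was −0.15 in TPM (−0.31 to −0.06 with each library left out), 1.20 with median-of-ratios and 1.33 with upper-quartile scaling.

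Direction turned with scaling for 4 members. In the order miR-136-3p, miR-431-5p, miR-434-3p and miR-434-5p, the log2 fold changes were −0.53, −0.72, −1.04 and −0.02 in TPM. They were 0.74, 0.56, 0.24 and 1.26 with median-of-ratios scaling, with or without the replicate block, and 0.87, 0.69, 0.37 and 1.39 with upper-quartile scaling. limma-voom gave 0.64, 0.41, 0.12 and 1.15, and GC correction, with or without the block, 1.35, 0.071, 0.29 and 1.02. Leaving out single libraries under median-of-ratios scaling gave 0.71, 0.39, 0.15 and 1.28 without E14.5 replicate 1, 0.73, 0.69, 0.31 and 1.29 without E14.5 replicate 2, 0.77, 0.60, 0.25 and 1.21 without E14.5 replicate 3. It gave 0.38, 1.38, 0.21 and 1.38 without P0 replicate 1, 0.87, 0.081, 0.047 and 1.15 without P0 replicate 2, 0.97, 0.22, 0.45 and 1.24 without P0 replicate 3. miR-433-3p, at −0.21 on that scale, turned to 0.086 without E14.5 replicate 3 and 0.96 without P0 replicate 1. In TPM miR-434-5p was −0.12 without P0 replicate 1, and turned to 0.0083 without P0 replicate 2 and 0.046 without P0 replicate 3. miR-136-5p was negative and both miR-127 arms positive under all alternatives run. The cause of these shifts was not tested. Depth limits miR-433-5p and the miR-3070 arms, with at most 112 reads in any library.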
